A study of Mus musculus with 50 samples.

Results

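The acute phase plasma protein genes examined here are 10 liver genes whose products are secreted into blood: Orm1, Orm2, Hp, Hpx, Saa1, Saa2, Saa4, Apcs, Itih4 and Lbp. They were chosen by symbol in the platform annotation of the arrays, each was represented by 1 probe set, and all 10 were measured among 30743 named genes. Pregnant CD-1 mice, an outbred strain, were gavaged once a day from embryonic day 1.5 to 17.5 with vehicle, with 1 or 5 mg/kg of PFOA (perfluorooctanoic acid), or with 2 or 10 mg/kg of GenX (hexafluoropropylene oxide dimer acid). At gestational day 17.5, RNA of the dams' livers and of fetal livers, the latter described as female and drawn at random within a litter, was hybridised to 50 Affymetrix whole-transcript arrays. The maternal groups are called maternal control, PFOA1, PFOA5, GenX2 and GenX10 after compound and dose, with 5 arrays each. The fetal groups carry the same names and hold 5 arrays each, except fetal PFOA5 with 6 and fetal GenX10 with 4. Fetuses received the compounds only through the dam. Both compounds are perfluorinated carboxylic acids: the carbon chain of PFOA is straight, while that of GenX is shorter, branched and interrupted by an ether oxygen.

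Acute phase proteins are made mainly by hepatocytes, and their blood levels shift during inflammation. The genes of the positive acute phase proteins are switched on by interleukin-6, which acts through the receptor pair Il6ra and Il6st and the transcription factor STAT3, and by interleukin-1 and C/EBP factors. In the fetus the liver is also a blood-forming organ, and many plasma protein genes reach their adult level only around or after birth. Both compounds are known as activators of the nuclear receptor PPARA, which drives fatty acid oxidation genes in rodent liver.

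On the GRCm38.p6 assembly, Orm1 (chr4:63344556-63348163) and Orm2 (chr4:63362449-63365877) are neighbours that encode the alpha-1-acid glycoproteins. Saa4 (chr7:46727992-46732603), Saa1 (chr7:46740497-46743181) and Saa2 (chr7:46751833-46754313) stand in a row and encode serum amyloid A apolipoproteins. Hpx, the heme-binding hemopexin, lies elsewhere on that chromosome (chr7:105591611-105600116). The others lie apart from these: Apcs on chr1:172893961-172895054, Lbp on chr2:158306493-158332852, Hp on chr8:109575128-109579172 and Itih4 on chr14:30886476-30901986. The 250 bases before the RefSeq start (GRCm38.p6) were at hand for 7 of the 10 genes, the exceptions being Orm1, Hp and Lbp. The 4 windows below are shown because Saa1 and Saa2 are near copies read by separate probe sets, Orm2 had the largest fall in maternal liver, and Itih4 fell in both tissues. They are chr7:46742981-46743230 on the minus strand, chr7:46751583-46751832 on the plus strand, chr4:63362199-63362448 on the plus strand and chr14:30886226-30886475 on the plus strand. The Saa1 window precedes a start that lies inside the outermost gene model. Capitals mark matches on either strand to a C/EBP motif (TTNNGNAA) or, in Itih4, to a STAT3 motif (TTCNNNGAA).
Saa1: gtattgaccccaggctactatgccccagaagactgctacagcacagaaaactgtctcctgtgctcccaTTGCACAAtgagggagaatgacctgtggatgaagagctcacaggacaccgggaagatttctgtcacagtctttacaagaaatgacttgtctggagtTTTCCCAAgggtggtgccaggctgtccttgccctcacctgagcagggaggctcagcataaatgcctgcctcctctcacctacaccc
Saa2: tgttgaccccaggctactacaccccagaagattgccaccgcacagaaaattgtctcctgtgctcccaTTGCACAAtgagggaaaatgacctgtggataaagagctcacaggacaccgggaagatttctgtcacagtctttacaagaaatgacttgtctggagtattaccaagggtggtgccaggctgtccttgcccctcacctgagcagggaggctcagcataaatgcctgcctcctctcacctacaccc
Orm2: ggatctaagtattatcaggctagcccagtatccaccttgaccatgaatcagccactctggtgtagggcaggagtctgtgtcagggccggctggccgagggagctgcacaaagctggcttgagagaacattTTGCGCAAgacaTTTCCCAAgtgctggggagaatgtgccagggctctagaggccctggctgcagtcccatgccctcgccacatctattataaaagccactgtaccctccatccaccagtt
Itih4: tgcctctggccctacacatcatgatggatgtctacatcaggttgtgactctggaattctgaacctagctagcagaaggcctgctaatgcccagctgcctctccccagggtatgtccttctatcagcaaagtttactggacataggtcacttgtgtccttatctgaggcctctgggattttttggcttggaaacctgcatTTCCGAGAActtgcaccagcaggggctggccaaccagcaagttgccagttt

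The Saa1 and Saa2 windows were identical at 238 of 251 aligned columns, or 94.8%, against 48.7% at most for any other pair among the 7. Both hold the C/EBP match TTGCACAA, whereas the second match of Saa1, 86 to 79 bases before the start, is not in the Saa2 window. The C/EBP motif was found in 5 of the 7 windows (Orm2, Hpx, Saa1, Saa2 and Saa4), and in 36.8% of 32851 promoter windows of the same length. The STAT3 motif was found in Apcs and Itih4, 2 of the 7, and in 7.02% of all windows. An NF-kB motif (GGGNNNNNCC) was found in Saa1, Saa2, Saa4 and Itih4, 4 of the 7, against 45.8% of all windows. A TATA motif (TATAAA) was found in 1 of the 7, Orm2, against 12.4%, and an HNF1 core motif (GTTAAT) in 0 of the 7, against 6.43%. These are matches of letters only.

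Signals are log2 values, and a gene was taken as measured on an array when it lay above the 95th percentile of that array's negative control probes, which ran from 7.37 to 8.18. The 9 measured hepatocyte markers averaged 12.08 in maternal control and 10.45 in fetal control, and Alb was at 13.45 ± 0.04 and 13.31 ± 0.06 (SD, n = 5 each). The 7 measured PPARA target genes of 8 listed, used as a check of exposure, were all called higher in every exposed group except maternal PFOA1, where 2 were. Over all genes, 10.8%, 2.43% and 7.55% were called higher in maternal PFOA5, GenX2 and GenX10, and 2.34%, 3.9% and 4.42% in the fetal groups of these names. For PFOA1, 0.0325% in maternal and 0.953% in fetal liver were called either way. In that group the library labelled replicate 1 had a mean over these 7 genes of 8.69, within the maternal control range of 8.25 to 9.28, while the other 4 lay between 10.73 and 11.02. Xist, the X-inactivation transcript, read 10.52 to 11.48 on the fetal arrays except replicate 3 of fetal control (5.39) and replicate 2 of fetal GenX2 (4.5), a male pattern, with the Y-linked gene Eif2s3y at 6.49 and 6.10 there. Title and source name disagree on the group of fetal PFOA5 replicate 6 and of fetal GenX2 replicate 5, and titles were followed. For genes above background, calls that changed without these arrays are given beside the result.

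Fetal and maternal controls were compared first, to see where each gene stands before exposure. All 10 genes were called lower in fetal control than in maternal control liver. Over all genes, 42.2% were called lower and 20% higher in the same comparison, and the median difference was −0.13 (log2) against −1.56 over the 10. Joint or separate normalization of the 2 tissues' arrays was not given in the sources used here. In whole liver, fewer hepatocytes and less RNA per hepatocyte cannot be told apart.

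Orm1 was at 11.51 ± 0.19 in maternal control (11.59, 11.71, 11.55, 11.51 and 11.21) and at 5.27 ± 0.16 in fetal control (5.42, 5.29, 5.03, 5.22 and 5.41). No fetal array of any group read Orm1 above background, so its control level was at least 12.3-fold higher in the dams. Orm2, Saa1 and Saa2 were likewise below background on every fetal array. Their maternal control levels were at least 2.61-fold, 1.61-fold and 1.34-fold higher. Such a bound sets each dim array at its background percentile. Among the 6 genes measured in both tissues, the heme- and hemoglobin-binding pair differed most: Hp, the hemoglobin scavenger haptoglobin, by −2.00 ± 0.22 (SE; 3.99-fold, adjusted p = 1.6e-10), and Hpx by −1.69 ± 0.13 (3.22-fold, adjusted p = 1.2e-14). Apcs, the pentraxin serum amyloid P component, differed by −1.62 ± 0.23 and Itih4, an inter-alpha-trypsin inhibitor heavy chain, by −1.5 ± 0.12. Saa4, the serum amyloid A form made without an inflammatory stimulus, differed by −0.85 ± 0.15. Lbp, which binds bacterial lipopolysaccharide, was nearest to its maternal level at −0.49 ± 0.18 (adjusted p = 0.020). Without fetal control replicate 5 the Lbp difference did not pass (adjusted p = 0.056).

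**Figure D1:**
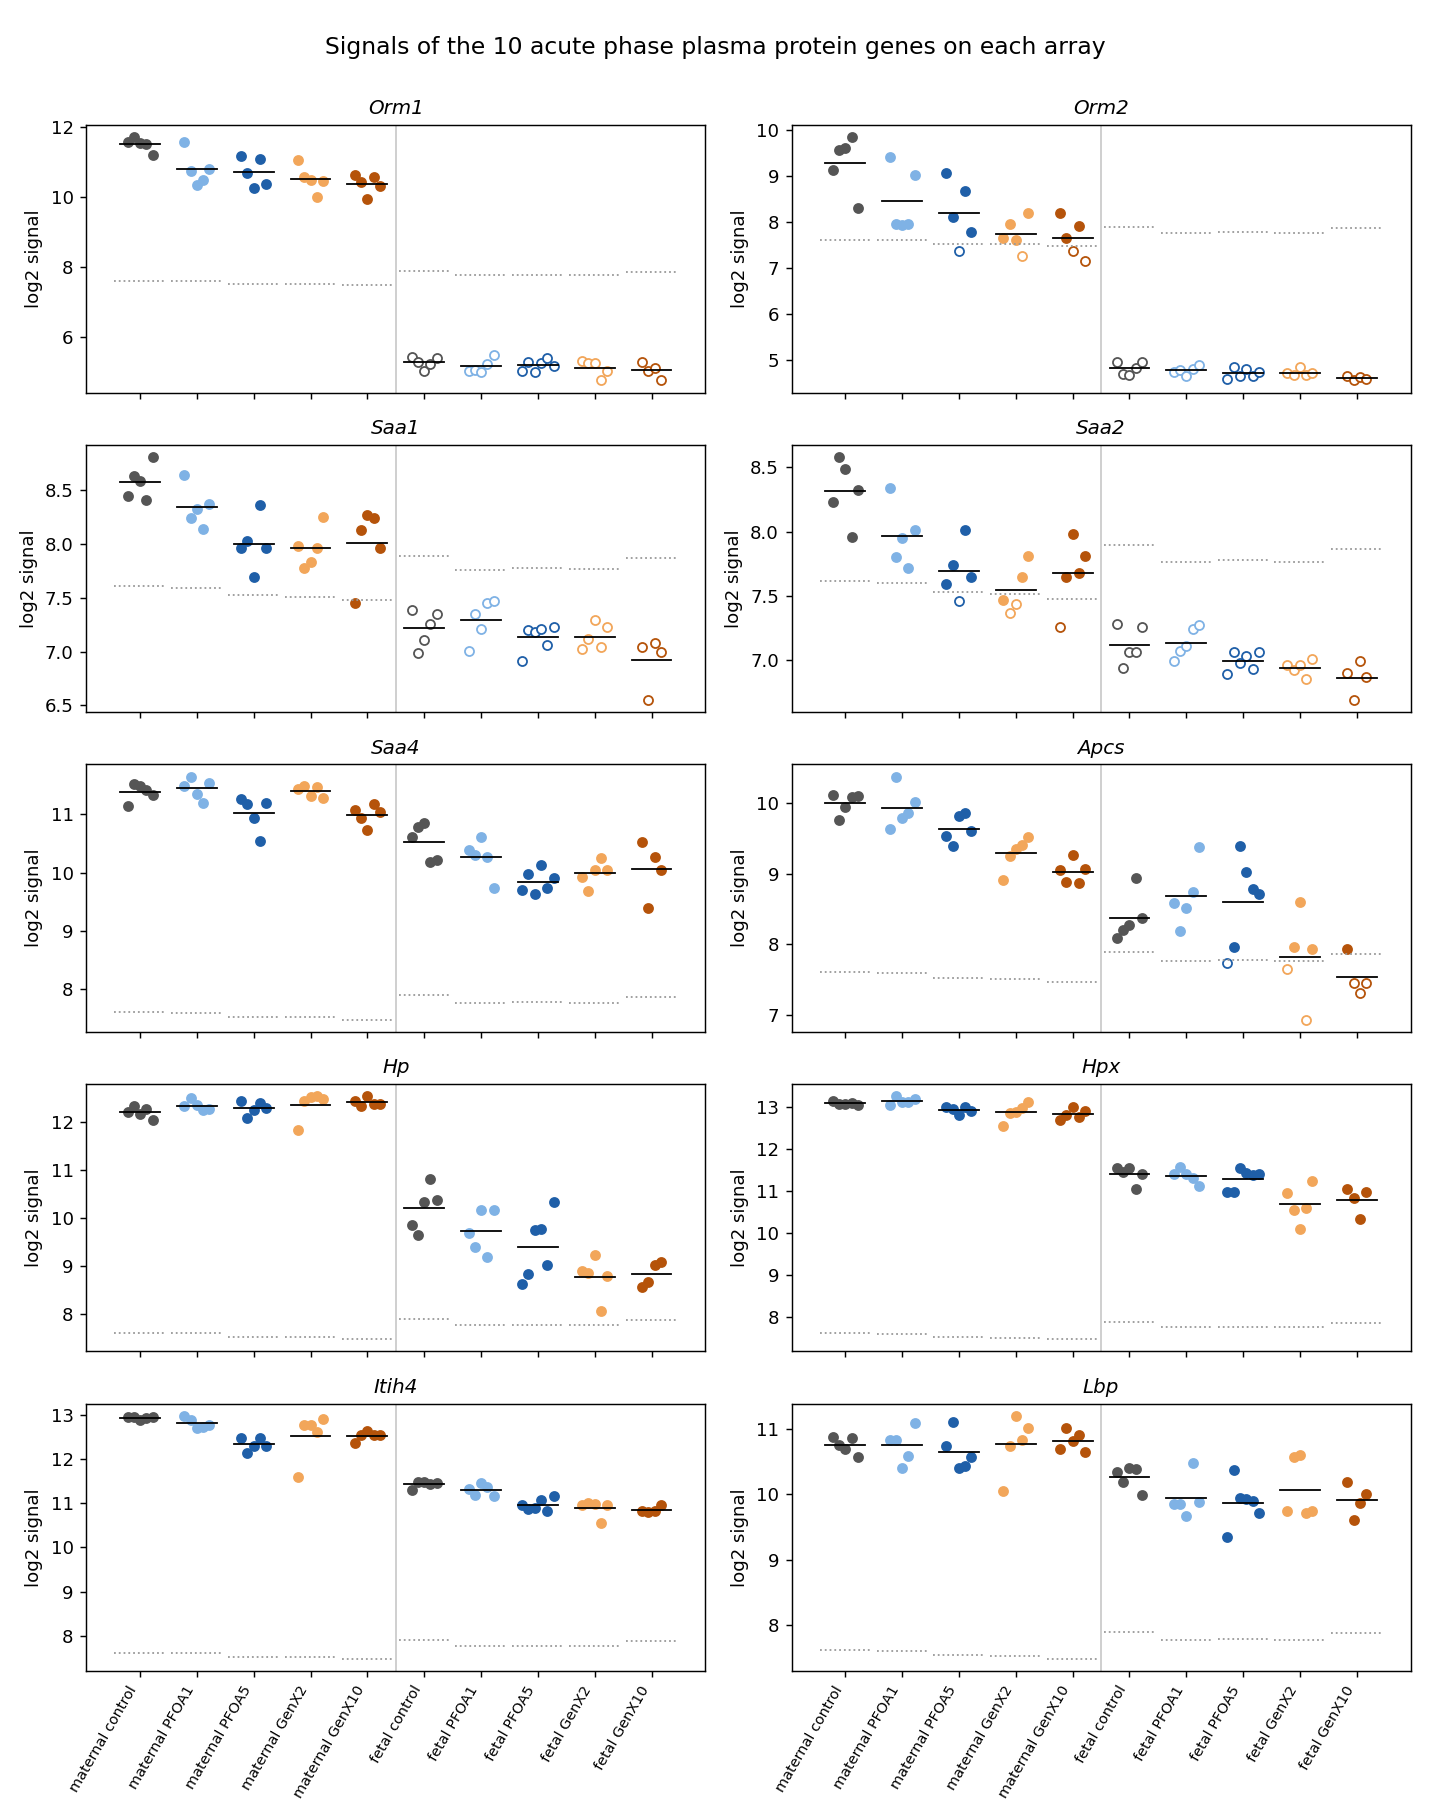
Log2 signal of each of the 10 genes (vertical axes, 1 panel per gene, different scales) on each of the 50 arrays, by group. Filled points lie above the array's background, open points do not, black bars are group means and dotted lines the groups' mean background. Orm1, Orm2, Saa1 and Saa2 have only open points in fetal liver, and Hp lies between 8.06 and 9.22 in fetal GenX2 and GenX10 and between 11.82 and 12.53 in the maternal groups.

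In maternal liver, the exposures were compared with control to ask which of these genes responded in the dam. With all arrays, none was called higher in any exposed group, and 7 of 10 were called lower in PFOA5, 5 in GenX2 and 7 in GenX10. Over all genes, 9.04%, 0.937% and 6.22% were called lower and 10.8%, 2.43% and 7.55% higher in these comparisons. The median log2 difference over the 10 genes was −0.47, −0.51 and −0.48, against −0.05, −0.03 and −0.05 over all genes. Orm1, Orm2, Saa1, Saa2 and Apcs fell in all 3 groups. Saa4 fell in PFOA5 and GenX10, Itih4 in PFOA5 and Hpx in GenX10. Hp and Lbp were not called in any of them. In PFOA1, limma called 0 of the 10 and 10 of all genes (0.0325%), and 3 of the 10 had an unadjusted p under 0.05.

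Orm2 had the largest changes. Its maternal control arrays read 9.13, 9.55, 9.59, 9.83 and 8.30 (9.28 ± 0.61, SD, n = 5). The GenX10 arrays read 8.18, 7.65, 7.36, 7.90 and 7.15, and the GenX2 arrays 7.64, 7.95, 7.60, 7.25 and 8.19. Every array of both GenX groups lay below every control array, although only 3 and 4 of the 5 exceeded background. The differences were −1.63 ± 0.33 in GenX10 (SE; 3.10-fold, adjusted p = 0.0015) and −1.55 ± 0.33 in GenX2 (2.93-fold, adjusted p = 0.0063). In PFOA5 the arrays spread from 7.36 to 9.05 and overlapped the controls, and the difference was −1.08 ± 0.33 (adjusted p = 0.022). That call was lost without any of 5 single arrays, control replicates 2, 3 or 4 or PFOA5 replicates 3 or 5 (highest adjusted p = 0.063).

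Orm1 fell by 1.13 ± 0.21 in GenX10 (2.19-fold, adjusted p = 0.00063), by 1.00 ± 0.21 in GenX2 (adjusted p = 0.0057) and by 0.79 ± 0.21 in PFOA5 (adjusted p = 0.0087). Its GenX10 arrays read 10.63, 10.42, 9.96, 10.59 and 10.32, its GenX2 arrays 11.05, 10.58, 10.50, 10.00 and 10.46, and its PFOA5 arrays 11.18, 10.69, 10.25, 11.10 and 10.38. None of these overlapped the control range of 11.21 to 11.71. The PFOA1 arrays read 11.57, 10.76, 10.36, 10.50 and 10.81, so that only replicate 1 lay in the control range. With all 5 arrays the PFOA1 difference was −0.71 ± 0.21 (adjusted p = 0.47). Without the library labelled replicate 1 it was −0.91 ± 0.19 (adjusted p = 0.027), and 127 genes in all were called instead of 10. In that fit Orm2 differed by −1.06 (adjusted p = 0.25) and Saa2 by −0.45 (adjusted p = 0.24). Orm1 and Orm2 are near copies, and their probe sets may share signal. Across the maternal arrays the deviations of Orm1 and Orm2 from their group means had r = 0.77 (25 arrays).

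Saa2 control arrays read 8.23, 8.58, 8.49, 7.96 and 8.32, and the mean of 8.32 ± 0.24 stood only slightly above the background of these arrays. It was 7.55 ± 0.18 in GenX2, with every array below every control, and 7.69 ± 0.21 and 7.68 ± 0.27 in PFOA5 and GenX10, with overlap. The differences were −0.77 ± 0.14, −0.63 ± 0.14 and −0.64 ± 0.14 (adjusted p = 0.0011, 0.0017 and 0.0023). Saa1 went from 8.58 ± 0.16 in control to 7.96 ± 0.18 in GenX2, 8.0 ± 0.24 in PFOA5 and 8.01 ± 0.34 in GenX10, without overlap in any of the 3. The Saa1 differences lay between −0.62 and −0.57 (adjusted p = 0.0037 to 0.0088). Deviations of the pair had r = 0.84 over the 25 maternal arrays, and their near-identical sequences may share signal. Saa4, a more distant copy, read 11.14 to 11.52 in control and 11.29 to 11.48 in GenX2, a difference of 0.02 ± 0.11 with a 95% confidence interval of −0.22 to 0.25. In PFOA5 and GenX10 it was lower by −0.36 ± 0.11 (adjusted p = 0.026) and −0.39 ± 0.11 (adjusted p = 0.022). With each array centred on its median, these Saa4 calls were lost, as were those of Apcs in PFOA5 and Hpx in GenX10. Without any of 4 single arrays in PFOA5 (control replicates 2, 3 and 4 and PFOA5 replicate 4) or any of 3 in GenX10 (control replicates 2 and 3 and GenX10 replicate 3), Saa4 was also lost. In PFOA5 the Saa4 call was lost too in the fit of only the groups compared (adjusted p = 0.064).

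Apcs fell in all 3 of these groups. The control arrays read 10.11, 9.76, 9.94, 10.08 and 10.09, the GenX2 arrays 8.91, 9.25, 9.35, 9.41 and 9.52, and the GenX10 arrays 9.05, 8.88, 9.26, 8.87 and 9.07. No array of either GenX group reached the control range. The difference was −0.97 ± 0.12 in GenX10 (1.96-fold, adjusted p = 5.9e-06), which was the smallest p of the 10 genes in maternal liver, and −0.71 ± 0.12 in GenX2 (adjusted p = 0.0011). In PFOA5 it was −0.36 ± 0.12 (adjusted p = 0.043), a call lost without any of 7 single arrays (control replicates 1, 3, 4 and 5 and PFOA5 replicates 1, 2 and 5).

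Itih4 read 12.90 to 12.96 on the 5 control arrays, the narrowest spread of the 10 genes (SD 0.03). The PFOA5 arrays read 12.49, 12.15, 12.31, 12.48 and 12.30 (−0.59 ± 0.15, adjusted p = 0.0067). The GenX10 arrays read 12.38, 12.55, 12.64, 12.56 and 12.56, all below control, but the difference of −0.40 ± 0.15 did not pass when all 5 groups were fitted (adjusted p = 0.076). It passed with dim genes left out (adjusted p = 0.045), with array weights (adjusted p = 0.037) and in the fit of only the groups compared (−0.40 ± 0.06, adjusted p = 0.00055). GenX2 replicate 1 read 11.60 against 12.63 to 12.91 on the other 4, and the difference there was −0.41 ± 0.15 with it and −0.17 ± 0.07 without it (adjusted p = 0.16 and 0.30). Hpx read 13.03 to 13.14 in control and 12.68 to 12.99 in GenX10 (−0.25 ± 0.08, adjusted p = 0.030), a call lost without any of 6 single arrays (control replicates 1, 2, 3 and 4 and GenX10 replicates 1 and 4). This Hpx call was also lost with the intensity trend (adjusted p = 0.075). In PFOA5 Hpx read 12.79 to 12.98, all below control, and the difference of −0.16 ± 0.08 did not pass (adjusted p = 0.13). It passed in the fit of only the groups compared (adjusted p = 0.039). In GenX2 Hpx differed by −0.21 ± 0.08 (adjusted p = 0.15) and was called without GenX2 replicate 5 (adjusted p = 0.048).

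Hp and Lbp were not called in the dams with all arrays. Hp read 12.04 to 12.32 in control and 12.33 to 12.53 in GenX10, with no overlap, and the difference of 0.20 ± 0.10 did not pass (95% confidence interval −0.01 to 0.41, adjusted p = 0.18). In GenX2 it was 0.15 ± 0.10 with all arrays and 0.28 ± 0.07 (adjusted p = 0.026) without replicate 1, which at 11.82 stood below the other 4 arrays (12.42 to 12.53). In that library the mean of the 9 hepatocyte markers was 11.89, against 11.99 to 12.19 in the other 4, and the mean of the endothelial markers was 8.31, against 7.51 to 8.18 in the other 4. Their part was not tested. Lbp differences lay between −0.10 and 0.07, with adjusted p of 0.69 or more. Hepatocyte marker means over the maternal groups lay between 11.96 and 12.08.

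**Figure D2:**
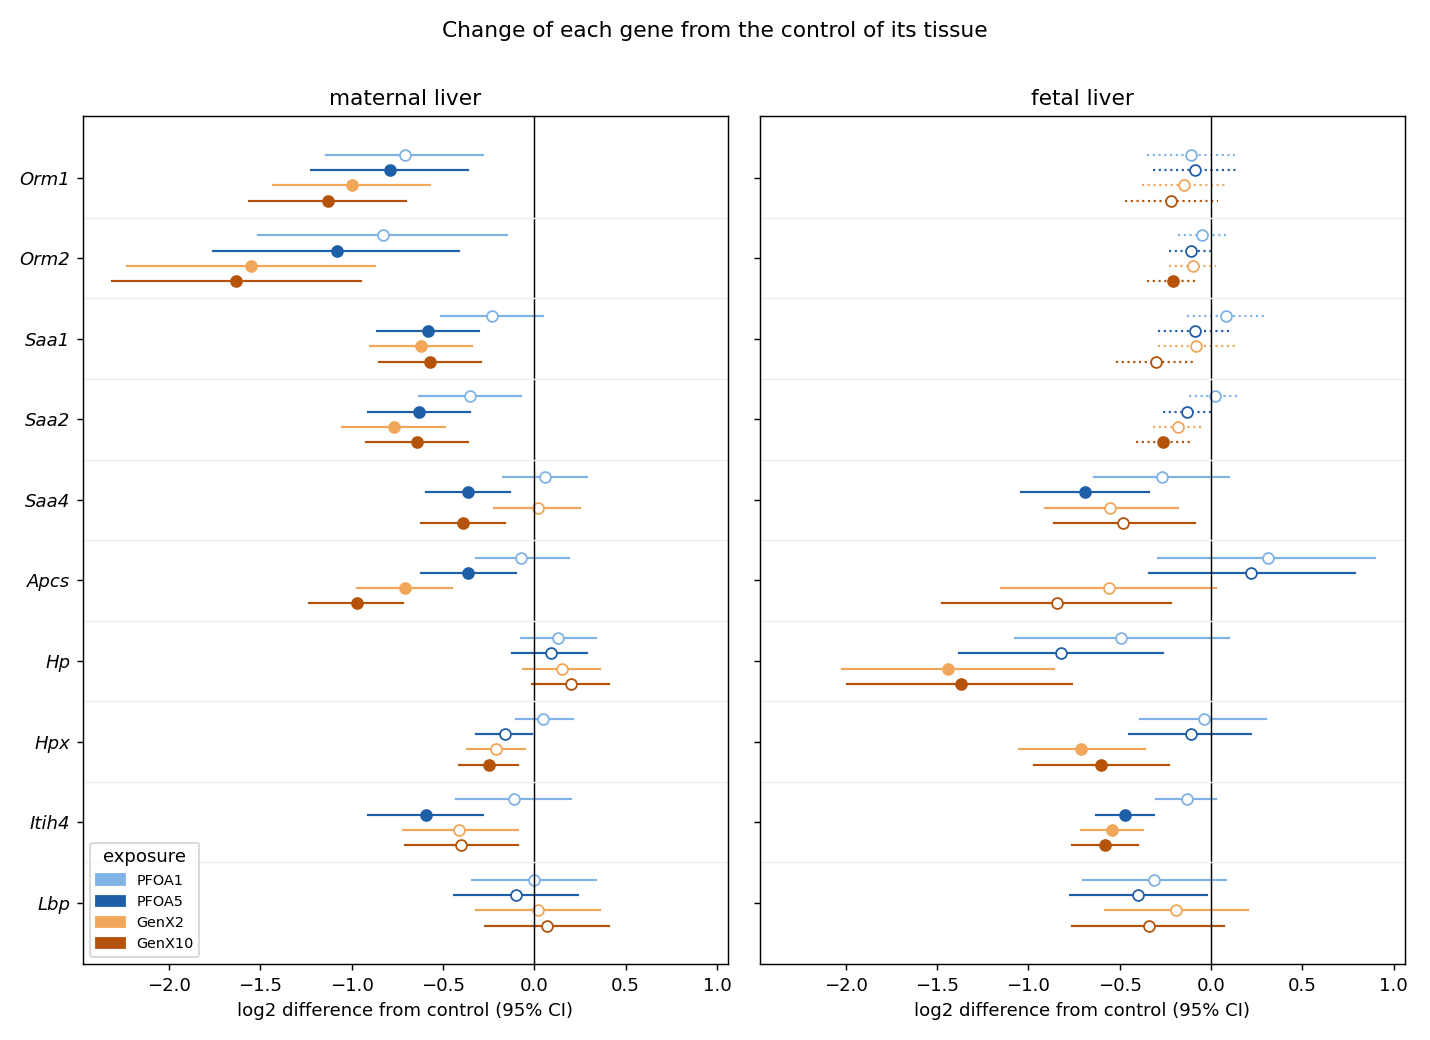
Log2 difference of each gene from the control of its own tissue (horizontal axis, points) with its 95% confidence interval (lines), for the 4 exposures in maternal (left) and fetal liver (right). Filled points passed an adjusted p of 0.05, and dotted intervals mark genes not above background in both groups compared. In maternal liver Orm1, Orm2, Saa1, Saa2 and Apcs lie to the left of 0 in PFOA5, GenX2 and GenX10, and in fetal liver Itih4 does so in the same 3 exposures.

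Doses were compared within compound. From PFOA1 to PFOA5 in the dams, 3 of the 10 genes were lower (8.52% of all genes were, and 10.2% were higher): Itih4 by −0.48 ± 0.15 (adjusted p = 0.029), Saa4 by −0.42 ± 0.11 (adjusted p = 0.011) and Hpx by −0.22 ± 0.08 (adjusted p = 0.049). The Hpx call was lost without any of 9 of the 10 arrays compared, all but PFOA1 replicate 1, and with the arrays centred on their medians, where Itih4 was lost too. Hpx was also lost with the intensity trend (adjusted p = 0.10) and the replicate block. The Saa4 call was lost in the fit of only the groups compared (adjusted p = 0.051). Without the library labelled PFOA1 replicate 1, Apcs was called and Itih4 was not, and Itih4 was also lost without PFOA1 replicate 2 or PFOA5 replicates 2 or 5. Orm1 differed by only −0.08 ± 0.21 between these doses. From GenX2 to GenX10, limma called 0 of the 10 (0.237% of all genes, either direction), and 2 had an unadjusted p under 0.05. Those 2 were Saa4, at −0.41 ± 0.11 with no overlap of arrays (adjusted p = 0.18), and Apcs, at −0.26 ± 0.12. In fetal liver, 0 of the 10 were called between the PFOA doses (0.0488% of all genes) and 0 between the GenX doses (0%), with 3 and 0 genes at an unadjusted p under 0.05. With array weights, Itih4 was called lower in fetal PFOA5 than in PFOA1 (−0.34 ± 0.08 and adjusted p = 0.19 without weights).

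In fetal liver, Itih4 fell in PFOA5, GenX2 and GenX10, Hp and Hpx fell in both GenX groups, and Saa4 fell in PFOA5. With Orm2 and Saa2 in GenX10, which were called between levels that both lay below background, 2, 3 and 5 of the 10 were called lower in PFOA5, GenX2 and GenX10. The Orm2 call was lost without control replicates 1, 4 or 5 or GenX10 replicates 1, 2 or 4, and the Saa2 call without control replicates 1 or 5 or GenX10 replicates 1, 2 or 4. Of the 12 alternatives that held these genes, the Orm2 call was kept in 5 and the Saa2 call in 9. Over all genes, 1.05%, 2.83% and 4.85% were called lower and 2.34%, 3.9% and 4.42% higher in these comparisons. None of the 10 was called higher. In fetal PFOA1 limma called 0 of the 10 (0.953% of all genes in either direction), and 0 had an unadjusted p under 0.05.

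Itih4 read 11.31, 11.49, 11.49, 11.43 and 11.47 on the fetal control arrays. It read 10.82 to 11.17, with a median of 10.93, on the 6 PFOA5 arrays, 10.97, 11.01, 10.98, 10.55 and 10.97 in GenX2, and 10.83, 10.81, 10.83 and 10.96 in GenX10. No exposed array of these 3 groups reached the control range. The differences were −0.47 ± 0.08, −0.54 ± 0.08 and −0.58 ± 0.09 (adjusted p = 0.00037, 9.2e-05 and 7.9e-05). The difference in PFOA1 was −0.13 ± 0.08 (adjusted p = 0.79). These 3 calls held under every alternative and with any 1 array left out, the doubted arrays included.

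Hp read 9.86, 9.65, 10.32, 10.80 and 10.38 on the fetal control arrays (10.20 ± 0.45, SD, n = 5). It read 8.90, 8.85, 9.22, 8.06 and 8.79 in GenX2 and 8.56, 8.66, 9.02 and 9.09 in GenX10, all above background and all below every control array. The differences were −1.44 ± 0.28 (2.71-fold, adjusted p = 0.0020) and −1.37 ± 0.30 (2.59-fold, adjusted p = 0.0040). The PFOA5 arrays ran from 8.62 to 10.33 and the PFOA1 arrays from 9.19 to 10.17, both overlapping control. In PFOA5 the difference of −0.82 ± 0.27 did not pass (adjusted p = 0.11). Without the 2 arrays of disagreeing labels it did (−1.01 ± 0.26, adjusted p = 0.033), and when source names were followed it did not (adjusted p = 0.084). With the mean of 6 erythroid markers as a covariate it was called (−1.01 ± 0.23, adjusted p = 0.0094). In PFOA1 the difference was −0.49 ± 0.28 (adjusted p = 0.77).

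Hpx read 11.54, 11.45, 11.54, 11.04 and 11.40 in fetal control and 10.94, 10.55, 10.10, 10.59 and 11.24 in GenX2, a difference of −0.71 ± 0.17 (adjusted p = 0.0096), which was not called in the fit of only the groups compared (adjusted p = 0.052). In GenX10 it read 11.04, 10.82, 10.33 and 10.98, a difference of −0.60 ± 0.18 (adjusted p = 0.034). The highest exposed arrays met control replicate 4, the lowest of the controls. The GenX10 call did not hold without any of 6 single arrays (control replicates 1, 2, 3 and 5 and GenX10 replicates 2 and 3), without the arrays of male pattern (adjusted p = 0.066), without all 4 doubted arrays (adjusted p = 0.052) or with source names followed (adjusted p = 0.086). It was also lost with median centring, array weights, the replicate block and the hepatocyte covariate, and was kept in 6 of 13 alternatives. In PFOA1 and PFOA5, Hpx differed by −0.04 and −0.11 with SEs of 0.17 and 0.16.

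The mean level of the hepatocyte markers was lower in the same GenX groups as Hp and Hpx, through a few of its genes. The mean of the 9 markers was 10.37 to 10.55 on the fetal control arrays, 9.71 to 10.05 in GenX2 and 9.84 to 10.02 in GenX10, without overlap, and 9.97 to 10.66 in PFOA5. In both GenX groups 3 of the 9 were called lower and 6 were not called, and the median differences were −0.18 and −0.22. Of all genes, 2.83% and 4.85% were called lower in fetal GenX2 and GenX10. Cyp2e1, a drug-metabolising enzyme that rises as hepatocytes mature, went from 8.92 ± 0.26 to below background on every array, at least 2.23-fold lower in GenX2 and 2.07-fold lower in GenX10. Cps1, a urea cycle enzyme, fell by 1.26 ± 0.33 in GenX2. Alb, in contrast, was at 13.31 ± 0.06 in control and 13.29 in both GenX groups, and Apob at 11.88 in control and at 11.97 and 12.05. Of 4 measured markers of fetal hepatocytes limma called 0 in either GenX group (0 and 1 at an unadjusted p under 0.05), with a median difference of −0.09 in both. With the marker mean as a covariate, a fit chosen after seeing the data, Hp differed by −0.41 ± 0.34 in GenX2 and −0.47 ± 0.33 in GenX10 (adjusted p = 0.68 and 0.56). In that fit Hpx differed by −0.53 ± 0.26 and −0.44 ± 0.25 (adjusted p = 0.36 and 0.41), so that its estimates stayed nearer to those without the covariate while their SEs grew. Itih4 remained called in that fit (−0.45 ± 0.13 and −0.50 ± 0.12, adjusted p = 0.042 and 0.014). Because the marker means of the control and GenX arrays did not overlap, this fit cannot separate exposure from marker level for any of these genes. The mean of 6 erythroid markers was 9.74 in control, 9.91 in GenX2 and 9.84 in GenX10, and with it as a covariate Hp remained called (−1.16 and −1.21, adjusted p = 0.0041 and 0.0027).

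**Figure D3:**
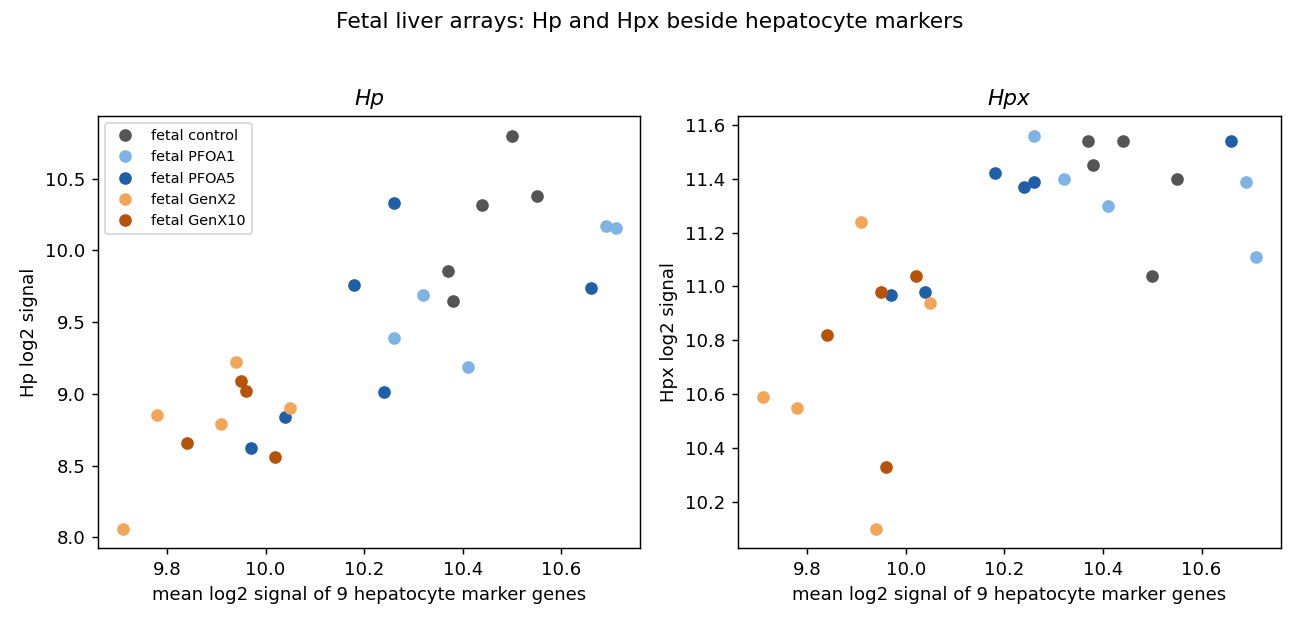
Log2 signal of Hp (left) and Hpx (right) on each of the 25 fetal arrays against the mean log2 signal of 9 hepatocyte marker genes on the same array. Colours mark the groups. The GenX2 and GenX10 arrays lie at marker means of 9.71 to 10.05 and Hp signals of 8.06 to 9.22, and the control arrays at 10.37 to 10.55 and 9.65 to 10.80.

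Saa4 fell in fetal PFOA5, where the 6 arrays ran from 9.63 to 10.13 against 10.19 to 10.86 in control (−0.69 ± 0.17, adjusted p = 0.021). The call did not hold without control replicates 1, 2 or 3 or PFOA5 replicate 3, nor without the 2 arrays of male pattern (−0.60 ± 0.18, adjusted p = 0.071) or all 4 doubted arrays (−0.62). In GenX2 and GenX10 Saa4 differed by −0.55 ± 0.18 and −0.48 ± 0.19 (adjusted p = 0.067 and 0.11). The GenX2 difference was called with dim genes left out (adjusted p = 0.029), array weights (adjusted p = 0.032) and the erythroid covariate (adjusted p = 0.022). It was also called without control replicate 4. Apcs was not called in any fetal group when all 5 were fitted together: it differed by 0.31 and 0.22 in the PFOA groups and by −0.56 and −0.84 in the GenX groups, with SEs of 0.27 to 0.30. In GenX10 the Apcs arrays read 7.93, 7.45, 7.31 and 7.45, all below the control range of 8.09 to 8.94, and only 1 of the 4 exceeded background (adjusted p = 0.082). That difference was called with dim genes left out (adjusted p = 0.046), with array weights (adjusted p = 0.037) and in the fit of only the groups compared (adjusted p = 0.015). With the hepatocyte marker mean as a covariate the sign of the Apcs estimates turned, to 0.59 ± 0.32 in GenX2 and 0.18 ± 0.31 in GenX10 (adjusted p = 0.44 and 0.86). As above, that fit cannot separate exposure from marker level. Lbp differences ran from −0.40 to −0.19, and none passed (lowest adjusted p = 0.27). In PFOA1, 4 of the Lbp arrays read 9.67 to 9.89 and replicate 4 read 10.48.

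The change in fetal liver was tested against the change in maternal liver for each exposure. Hp differed between the tissues in both GenX groups: its fetal change minus its maternal change was −1.59 ± 0.31 in GenX2 and −1.57 ± 0.32 in GenX10 (adjusted p = 0.0021 for both). Genes called in that direction made up 0.667% and 1.3% of all genes. The 2 Hp calls held under the 11 alternatives tried for them, which held no marker covariate, and with any 1 array left out. For PFOA5 the Hp difference was −0.91 ± 0.30 and did not pass (adjusted p = 0.082). It did pass without the arrays of disagreeing labels (−1.1 ± 0.28, adjusted p = 0.016), without all 4 doubted fetal arrays (−1.07 ± 0.30, adjusted p = 0.037), with dim genes left out (adjusted p = 0.039) and with the replicate block (adjusted p = 0.010). For PFOA1 it was −0.62 ± 0.31 (adjusted p = 1).

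The same test was called with a positive sign 5 times, for Orm2 in GenX2 and GenX10, Orm1 in GenX10, and Saa2 in GenX2 and PFOA5. These 3 genes were below background on every fetal array, so their fetal change was not measured, although those fetal values entered each estimate. Without the male-pattern fetal arrays the calls of Orm2 and Saa2 in GenX2, Orm1 in GenX10 and Saa2 in PFOA5 were lost. Of 11 alternatives, Orm2 kept its call in 9 for GenX2 and 10 for GenX10, and Orm1 in 7. Saa2 kept it in 6 for GenX2 and 5 for PFOA5. Over all genes, 1.77%, 0.612% and 0.735% were called in this direction for PFOA5, GenX2 and GenX10, and 2.71% in the other direction for PFOA5, where no member was. For Itih4, which fell in both tissues, the fetal minus maternal differences lay between −0.18 and 0.12, with SEs of 0.17 to 0.18, and none was called. The widest of their intervals ran from −0.54 to 0.19. For PFOA1 limma called 0 of the 10 (0.179% of all genes), and 3 had an unadjusted p under 0.05.

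**Figure D4:**
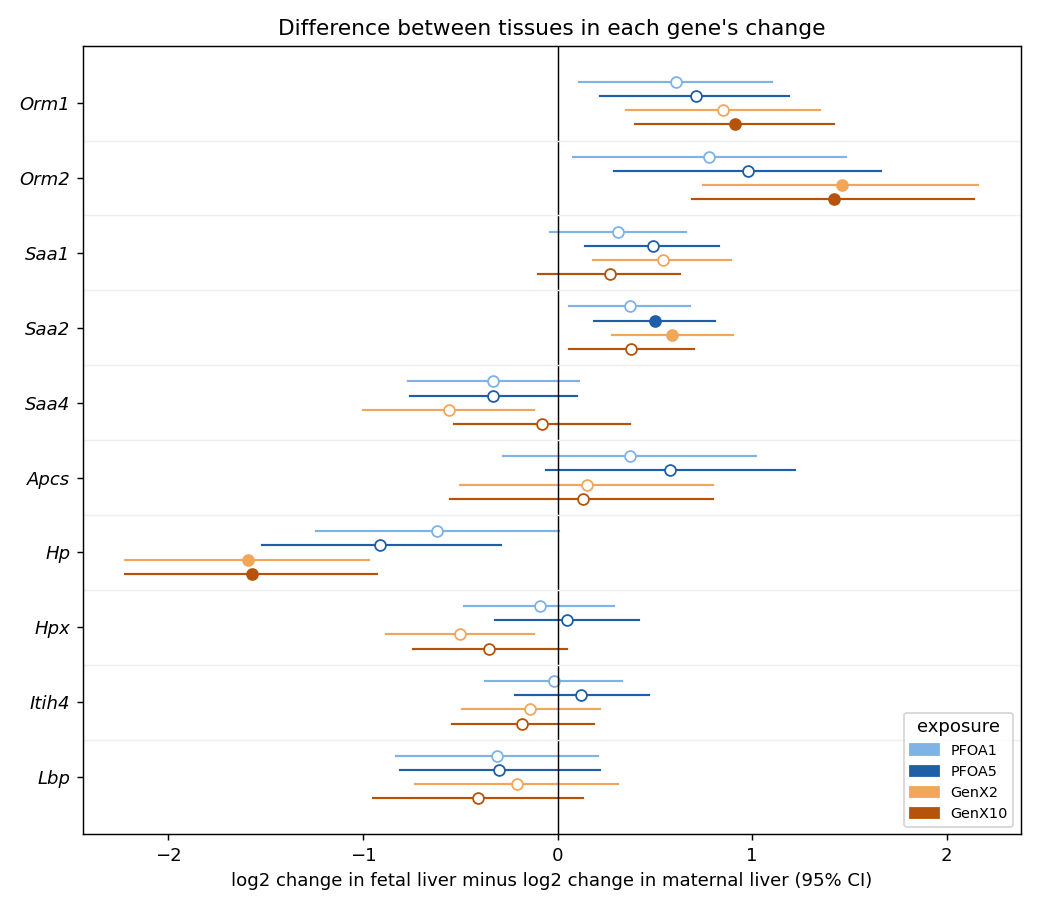
Fetal log2 change minus maternal log2 change of each gene (points) with its 95% confidence interval (lines) for the 4 exposures. Filled points passed an adjusted p of 0.05. Hp lies at −1.59 and −1.57 for GenX2 and GenX10. The points of Orm1, Orm2, Saa1 and Saa2 do not show a fetal response, since these genes were below background on every fetal array.

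The doses of PFOA and GenX were not matched, so the compounds are set side by side without a test. In the dams, PFOA5 and GenX10 gave similar values for Saa1 (−0.58 and −0.57), Saa2 (−0.63 and −0.64) and Saa4 (−0.36 and −0.39). For Apcs the values were −0.36 and −0.97, for Orm2 −1.08 and −1.63, and for Itih4 −0.59 and −0.40. In fetal liver, values of PFOA5 and GenX10 were −0.82 and −1.37 for Hp, −0.11 and −0.60 for Hpx, 0.22 and −0.84 for Apcs, and −0.47 and −0.58 for Itih4. All exposures of a tissue share its control arrays.

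Other genes of the same response were read from lists. Of 21 measured other positive acute phase genes, 15 were lower and 2 higher in maternal PFOA5, 4 lower and 1 higher in GenX2, and 10 lower and 1 higher in GenX10. Over all genes, 9.04%, 0.937% and 6.22% were called lower and 10.8%, 2.43% and 7.55% higher in these groups. Mbl2, the mannose-binding lectin, fell by 1.44 ± 0.16 in PFOA5 and by 1.06 ± 0.16 in GenX10. Crp, C-reactive protein, fell by 0.42 ± 0.09 in GenX2 and by 0.64 ± 0.09 in GenX10. Il1rn, the interleukin-1 receptor antagonist, was called higher in all 3 groups. It was above background on 0 of 5 control arrays, 5 of 5 in PFOA5, 1 of 5 in GenX2 and 3 of 5 in GenX10, and was at least 1.42-fold and 1.05-fold higher in PFOA5 and GenX10. In fetal liver the same list had 1, 3, 4 and 4 genes lower in PFOA1, PFOA5, GenX2 and GenX10, and Mbl2, measured on only 2 of 5 control arrays and on no exposed array, was among them in each. Of all genes, 1.05%, 2.83% and 4.85% were called lower in fetal PFOA5, GenX2 and GenX10, and 0.953% either way in PFOA1. The angiotensinogen gene Agt rose in fetal GenX2 and GenX10 (0.39 ± 0.09 and 0.54 ± 0.09), where 3.9% and 4.42% of all genes were called higher.

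Negative acute phase genes, whose proteins fall in inflammation, were measured for 11 of 12. In maternal PFOA5, 4 were lower and 1 higher, in GenX2 0 and 1, and in GenX10 1 and 1. The shares over all genes were 9.04%, 0.937% and 6.22% lower and 10.8%, 2.43% and 7.55% higher in these groups. Rbp4, the retinol carrier, fell by 0.36 ± 0.05 in PFOA5 and by 0.24 ± 0.05 in GenX10, while Ttr, transthyretin, rose by 0.18 to 0.27 in PFOA5, GenX2 and GenX10. In fetal GenX2 and GenX10, 2 were lower in each: the apolipoprotein gene Apoa1 and the iron carrier gene Trf (Trf by −0.24 ± 0.05 in both). In addition, 1 was higher in fetal GenX2 and 0 in GenX10. Of all genes, 2.83% and 4.85% were called lower there and 3.9% and 4.42% higher. In fetal PFOA5, 1 was lower and 0 higher (1.05% and 2.34% of all genes). In fetal PFOA1, 1 was higher and 0 lower (0.953% of all genes either way).

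Of 23 measured genes of cytokine signalling to hepatocytes, at most 4 were called in any exposure. That was in maternal PFOA5, with 3 lower and 1 higher, where 9.04% and 10.8% of all genes were called in these directions, and in each of fetal PFOA5, GenX2 and GenX10 it was 2 lower and 1 higher. The fetal shares over all genes were 1.05%, 2.83% and 4.85% lower and 2.34%, 3.9% and 4.42% higher. The genes named here are those with the smallest p of the list. Il6ra, which binds interleukin-6, fell in maternal PFOA5 from 9.41 to 8.22 (−1.19 ± 0.24, adjusted p = 0.00093). In fetal liver it fell from 8.12 in control to below background on every array of PFOA5, GenX2 and GenX10 (at least 1.27-fold, 1.28-fold and 1.19-fold lower). Il6st, the shared signalling chain, rose in the same 3 fetal groups by 0.52 ± 0.12, 0.49 ± 0.12 and 0.66 ± 0.13, and by 0.31 ± 0.09 in maternal PFOA5. Il1r1, the interleukin-1 receptor, fell in those 4 groups (−0.90 ± 0.21 in maternal PFOA5, and −0.52, −0.42 and −0.51 in fetal PFOA5, GenX2 and GenX10).

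Of 17 partners of the member proteins, 4 were higher and 6 lower in maternal PFOA5, 2 and 0 in GenX2, 3 and 2 in GenX10, and 1 and 0 in PFOA1. The shares over all genes were 10.8%, 2.43% and 7.55% higher and 9.04%, 0.937% and 6.22% lower in PFOA5, GenX2 and GenX10. In maternal PFOA1, 0.0325% were called either way. In fetal liver 2, 2, 3 and 1 were higher and 0, 0, 2 and 3 lower in PFOA1, PFOA5, GenX2 and GenX10. For fetal PFOA5, GenX2 and GenX10 the shares over all genes were 2.34%, 3.9% and 4.42% higher and 1.05%, 2.83% and 4.85% lower. For fetal PFOA1, 0.953% were called either way. Pltp, a phospholipid transfer protein of the same family as Lbp, rose in all 4 maternal groups, by 1.16, 2.05, 1.99 and 2.46 in PFOA1, PFOA5, GenX2 and GenX10. It rose by 0.83, 1.53 and 0.86 in fetal PFOA1, PFOA5 and GenX2, and its mean was 8.87 in fetal GenX10 against 8.25 in control. Cd14, which receives lipopolysaccharide from Lbp, rose from below background to 7.81 in maternal PFOA5, at least 1.15-fold. Itih1, another heavy chain of the Itih4 family, fell with it in maternal PFOA5 (−0.85 ± 0.10) and also fell in maternal GenX10 (−0.73 ± 0.10) and fetal GenX10 (−0.37 ± 0.10). Blvrb, a biliverdin reductase in heme breakdown, rose in maternal GenX2 and GenX10 (0.56 ± 0.09 and 0.62 ± 0.09). The mean of 10 macrophage and Kupffer cell markers was 7.20 in maternal control, 7.71 in PFOA5, 7.28 in GenX2 and 7.66 in GenX10. Of the 10, limma called 5 higher in PFOA5, 3 in GenX10 and 0 in GenX2 (0 at an unadjusted p under 0.05), and the part of these cells in the results was not tested. All 10 granulocyte markers were below background on every maternal array.

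The genes whose signals ran most like the median profile of the 10 members over the 25 maternal arrays, among 4618 genes above background on all of them, were Serpina10 (r = 0.90), Necab1 (0.90), Crp (0.85), St3gal4 (0.84), Ppib (0.84) and C4a (0.84). Of the members themselves, Saa1 (0.86), Saa2 (0.84) and Hpx (0.83) followed that profile most closely, while Hp (0.02) and Lbp (0.21) did not. Over the 25 fetal arrays and 3776 genes the nearest were Cyp2d26 (0.84), Gstp3 (0.79), Cyp2d10 (0.78), Apof (0.77), Hgfac (0.77) and Sult1a1 (0.75). There Saa2 (0.83) and Hp (0.81) were the members nearest to the profile. Saa2, Saa1 (0.75), Orm2 (0.70) and Orm1 (0.56) were below background on every fetal array, so the fetal profile rests partly on background signal. Each member is itself part of the profile it was set against. These arrays share groups and controls, and the values are descriptions.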

How the data were processed

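RNA of 50 mouse livers, 25 maternal and 25 fetal, was read on Affymetrix whole-transcript arrays. The deposited values are log2 signals made by the authors with RMA. Method and build (mm10) are given per the submitters' processing notes, and whether both tissues were normalized together is unstated. RMA brings the arrays to a common distribution, so a shift shared by most genes cannot be read from the values.

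Groups followed the sample titles. Of 72688 features, 6732 controls were set aside. Of the remaining 65956 probe sets, only the 32750 annotated with a gene were used. Those naming several genes (1534) were left out, leaving 30743 genes, each by its brightest probe set. In R 4.3.3, limma 3.58.1 (lmFit, eBayes) fitted the 5 groups of a tissue together for exposures and doses, and all 10 groups for differences between tissues. Tests were two-sided, p-values were Benjamini-Hochberg adjusted over all genes, and a call required an adjusted p under 0.05. The ± of a difference is its SE and that of a level its SD. Background was each array's 95th percentile of 5222 negative controls. The fits were tested on simulated data. The number of arrays limits the precision. The labels name dams and litters as separate animals, with 1 fetus from each litter. Which dam belongs to which fetus is not named, so tests between tissues treated all arrays as independent, although some may be related.

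The 10 genes and the lists were chosen with earlier results of these data known. In each list the named genes are up to 3 with the smallest adjusted p per comparison, and genes listed for likeness are the 6 non-members with the highest r in each tissue, gene models and small RNAs left out. Alb, Apob, Xist and Eif2s3y were named for their role as markers, with their values known. Whether equal replicate numbers pair arrays is not known. Deviations of same-numbered arrays had a mean correlation of −0.02 within maternal liver (50 pairs), 0.02 within fetal liver (46 pairs) and −0.06 across the tissues (24 pairs). Single pairs ran from −0.25 to 0.24, −0.54 to 0.59 and −0.33 to 0.18, so these means cannot decide it. No duplicate arrays were found (highest correlation 0.9975). Alternatives were a filter on dim genes, an intensity trend, median centring, array weights, fits of only the groups compared, the replicate number as a block, an erythroid covariate in fetal fits, other handling of the 4 doubted fetal arrays and leaving out each array. The hepatocyte covariate and the omission of all 4 doubted arrays together were added after seeing the data. Promoter sequences and gene positions are those of RefSeq on GRCm38.p6.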

Additional observations from a re-analysis of the deposited data

Results flagged for a closer look

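Single arrays stood apart from the rest of their group for 7 of the 100 sets of a gene and a group that were tested with Dixon's criterion, which by chance marks about 1 in 20. Maternal GenX2 replicate 1 was low for Hp (11.82, the other 4 arrays at 12.42 to 12.53) and for Itih4 (11.60, the others at 12.63 to 12.91). In fetal liver, control replicate 4 was low for Hpx (11.04, the others at 11.40 to 11.54), GenX2 replicate 4 was low for Itih4 (10.55, the others at 10.97 to 11.01) and GenX10 replicate 4 was high for Itih4 (10.96, the others at 10.81 to 10.83). Lbp was high in fetal PFOA1 replicate 4 (10.48, the others at 9.67 to 9.89). Saa1 was low in fetal GenX10 replicate 2 (6.55, the others at 7 to 7.08), all of these being below background.

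Limma's test of the fetal change minus the maternal change was called in 7 instances. For Hp, measured in both tissues, the difference was −1.59 in GenX2 and −1.57 in GenX10. The other 5 do not bear on the fetal response, because the genes were below background on every fetal array and only their maternal change was measured: 1.46 in GenX2 and 1.42 in GenX10 for Orm2, 0.91 in GenX10 for Orm1, and 0.59 in GenX2 and 0.50 in PFOA5 for Saa2.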

How the results depend on the processing

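No value changed sign among those called, and the cause was not tested for the changes that follow. Of the 10 genes, the number called in the PFOA5 difference between tissues went from 1 to 5 with dim genes left out, 4 with array weights, 2 with only the groups compared, and 0 with median centring, with source names followed or without the male-pattern arrays. In the GenX2 difference between tissues it went from 3 to 5 with array weights and to 1 without the male-pattern arrays or all 4 doubted arrays, and in the GenX10 difference from 3 to 1 without all 4. In fetal GenX10 it went from 5 to 3 with median centring or source names followed, 2 with the replicate block and 1 with the hepatocyte covariate, and in fetal GenX2 from 3 to 1 with that covariate. In fetal PFOA5 it went from 2 to 1 without the male-pattern arrays or all 4 doubted arrays, in maternal PFOA5 against PFOA1 from 3 to 1 with median centring, and in fetal PFOA5 against PFOA1 from 0 to 1 with array weights. The replicate block, for which it is not known whether numbers pair arrays, moved no other count by over 1.5 times. Leaving out 1 array gave 0 to 1 in maternal PFOA1, 4 to 6 in PFOA5, 5 to 6 in GenX2 and 5 to 7 in GenX10, 0 to 0 in fetal PFOA1, 1 to 3 in PFOA5, 3 to 4 in GenX2 and 2 to 5 in GenX10. It gave 9 to 10 in fetal against maternal control, 1 to 3 between the maternal PFOA doses, 0 to 0 between the other doses, and 0 to 0, 0 to 2, 2 to 3 and 1 to 3 in the PFOA1, PFOA5, GenX2 and GenX10 differences between tissues. Over all genes, calls moved by over 1.5 times as follows. With dim genes left out, which tests fewer genes, they went from 10 to 24 in maternal PFOA1, 6109 to 3512 in PFOA5, 4232 to 2696 in GenX10, 5748 to 3169 between the maternal PFOA doses, 2851 to 1652 in fetal GenX10 and 19116 to 6036 in fetal against maternal control. With array weights they went from 10 to 38 in maternal PFOA1, 6109 to 9637 in PFOA5, 1036 to 2621 in GenX2, 15 to 54 between the fetal PFOA doses, and 1376 to 2891 and 626 to 941 in the PFOA5 and GenX10 differences between tissues. With only the groups compared they went from 1036 to 597 in maternal GenX2, 73 to 14 between the maternal GenX doses, 2070 to 1159 in fetal GenX2, 2851 to 1751 in fetal GenX10, 15 to 9 between the fetal PFOA doses and 393 to 260 in the GenX2 difference. With source names followed they went from 2070 to 1260 in fetal GenX2, and with the erythroid covariate from 15 to 27 between the fetal PFOA doses. With the hepatocyte covariate they went from 1042 to 1769, 2070 to 1196 and 2851 to 1479 in fetal PFOA5, GenX2 and GenX10, and from 15 to 125 between the fetal PFOA doses. Signals near background limit Saa1, Saa2 and Orm2 in exposed dams and Apcs in fetal GenX10.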
